A study of Homo sapiens with 3 samples.

Results

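The data described here are the read counts of 10 genes of the WNT pathway in T24 cells, a human bladder carcinoma line, out of 58381 genes counted. The 10 genes are the secreted antagonist DKK1 and its relative DKK3, the ligands WNT5A, WNT5B, WNT7A and WNT7B, and AXIN2, LEF1, TCF7 and RNF43, which are counted among the target genes of the pathway. They were chosen by their place in the pathway with earlier results of these same libraries in view, among them the difference in DKK1 between irradiated and untreated cells, so that their levels and ratios are given as a description and without a test. Each of the 10 symbols matched 1 gene of the table through its Ensembl identifier.

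The study sequenced 3 conditions with 1 library each: T24 cells labelled as control (Ctrl), the same cells exposed to radiation (RT), and irradiated T24 cells with HDAC6 knockdown by a lentiviral shRNA (RT + shHDAC6). The labels give 10 Gy from a caesium γ-irradiator as the dose, list the treatment of Ctrl as "Empty", and describe for the series a control pLKO.1 vector and selection with puromycin, whereas the paper calls the comparator parental cells. Neither the time between irradiation and lysis nor a second shRNA is given, and the model is a single cell line. With 1 library per condition no difference has a replicate check, no p-value is given, and the effect of the shRNA cannot be told apart from any other difference between these libraries.

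For HDAC6, the gene that the shRNA targets, the counts of Ctrl, RT and RT + shHDAC6 were 3098, 2383 and 2170. The library labelled as the knockdown thus held 87.2% of the HDAC6 level of RT (95% interval of the ratio 0.823 to 0.925) and 90.7% of that of Ctrl. These are read counts of single libraries. For its shHDAC6 T24 cells the paper reports lower HDAC6 mRNA by qPCR and lower HDAC6 protein by Western blot. Every difference between the irradiated libraries below stands beside this small difference in HDAC6 read counts.

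WNT ligands are secreted lipid-modified proteins that bind Frizzled receptors on the cell surface. In the canonical branch, together with the co-receptors LRP5 and LRP6, they stop the degradation of β-catenin, which then activates genes with TCF/LEF factors. DKK1 blocks this branch by binding LRP5 and LRP6. WNT5A and WNT5B are known mainly for signalling that does not need β-catenin, through receptors such as ROR1 and ROR2, whereas WNT7A and WNT7B are ligands of epithelia. AXIN2 and RNF43 are negative feedback genes of the canonical branch, the former a scaffold of the complex that degrades β-catenin and the latter a ubiquitin ligase that removes Frizzled receptors. LEF1 and TCF7 encode the DNA-binding factors themselves.

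The libraries held between 35424086 and 41811165 counts. Levels are given as CPM (counts scaled to library size) after TMM scaling, where 1 count corresponds to 0.0221 CPM in Ctrl, against 0.0298 in RT and 0.0286 for RT + shHDAC6. Log2 ratios are given with 95% intervals from Clopper-Pearson limits, which cover counting error only. A gene was called where it had at least 10 counts in 1 of the 2 libraries and differed at least 2-fold, and only such differences are called rises or falls. In bulk RNA, fewer cells that express a gene and less of its RNA per cell cannot be told apart.

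Of the 10 genes, DKK3 had the most counts in Ctrl and WNT5B in the irradiated libraries, and WNT7A had the fewest in all 3. The other genes apart from AXIN2, RNF43 and WNT7B reached 100 counts in at least 1 library. These 3 had between 15 and 35 counts in every library, and WNT7A had at most 6, so that it did not enter the counts of calls. For RT against Ctrl, 2 of the 9 genes tested were at least 2-fold higher, DKK1 and WNT5B, and 0 were at least 2-fold lower. Over all 20267 genes tested the shares were 4.81% higher and 9.17% lower. Nothing is read from the share among the members, since they were chosen with this contrast known. The median log2 ratio was -0.29 for the 9 genes and -0.062 for all genes tested. In RT + shHDAC6 against RT, 0 of 9 genes passed 2-fold in either direction, where 4.35% of all 19013 genes tested were higher and 4.78% lower, and the medians were -0.18 and -0.0032.

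**Figure D1:**
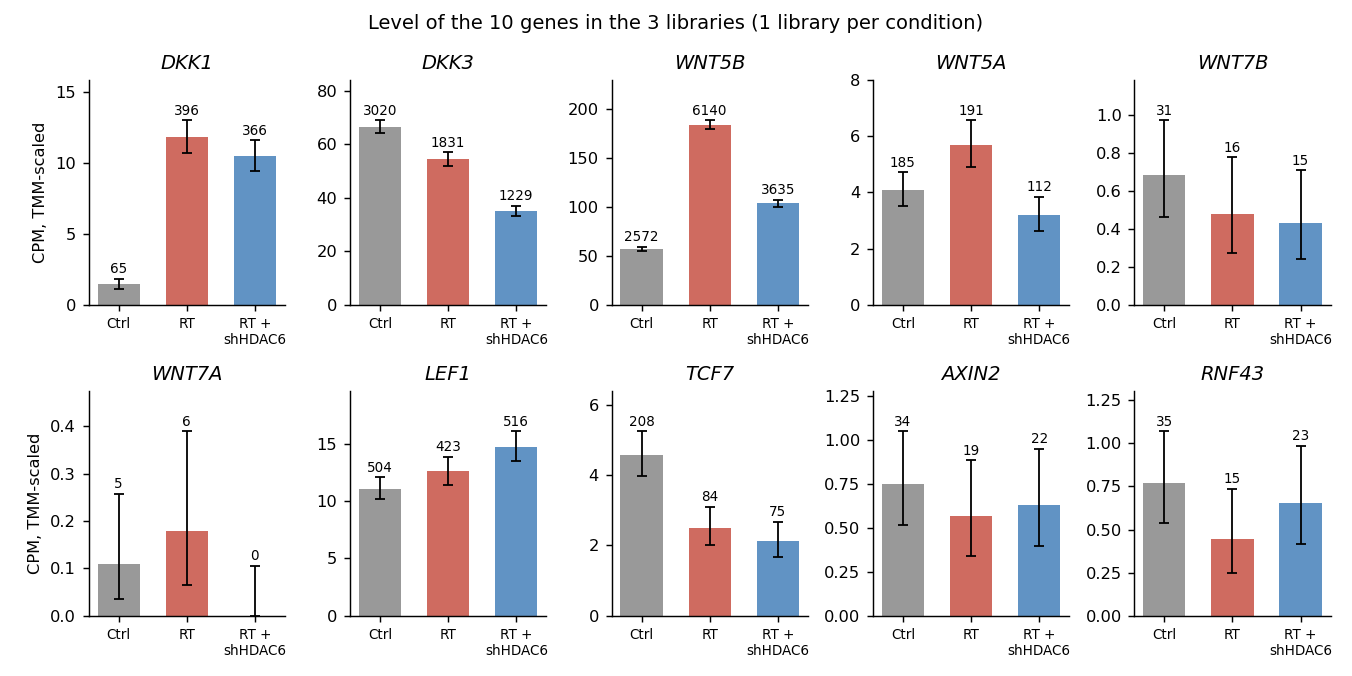
Level of each of the 10 genes in CPM after TMM scaling (vertical axis, from 0, with its own scale in each panel) in the 3 libraries. Bars are single libraries, error bars are 95% Poisson intervals of the count, and the number over each bar is the count; DKK1 and WNT5B are highest in RT, and TCF7 and DKK3 are highest in Ctrl.

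DKK1 (ENSG00000107984) lies on chromosome 10 of GRCh38 from 52314281 to 52318042 on the forward strand, with 4 exons in its canonical transcript. It had 65 counts (Ctrl), 396 (RT) and 366 (RT + shHDAC6), or 1.43, 11.8 and 10.5 CPM. Both irradiated libraries were thus high and Ctrl was low, and the counting intervals of Ctrl (1.11 to 1.83 CPM) and RT (10.7 to 13.0 CPM) did not overlap. The ratio of RT to Ctrl was 8.24, a log2 ratio of 3.04 (interval 2.66 to 3.44), and only 19 of the 20267 genes tested had a higher one. The log2 ratio of RT + shHDAC6 to RT was -0.18 (interval -0.38 to 0.033), so a difference between the irradiated libraries was not detectable at this depth. Against Ctrl, RT + shHDAC6 kept 94.2% of the difference on the log2 scale, with a log2 ratio of 2.87 (interval 2.48 to 3.27). The antisense gene PRKG1-AS1 overlaps 10.2% of the exon length of DKK1 on the other strand, and it had 3, 1 and 2 counts.

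Of the 12684 genes that reached 100 counts in any library, the 3 genes whose pair of log2 ratios lay nearest to that of DKK1 were MT-TQ, CXCL1 and CGB5, at distances of 0.32, 0.36 and 0.58. MT-TQ is a mitochondrial tRNA gene, CXCL1 encodes a chemokine for neutrophils, and CGB5 encodes a β-subunit of chorionic gonadotropin and belongs to a family of near-identical genes, among which its reads may be split. For CXCL1 the log2 ratios were 2.71 (RT against Ctrl) and -0.32 (RT + shHDAC6 against RT). Mitochondrial genes as a whole took 3.75% (Ctrl), 6.09% (RT) and 5.51% (RT + shHDAC6) of the counts. Likeness here rests on 3 libraries.

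The promoter of DKK1 is shown because DKK1 is itself a known target of β-catenin and TCF/LEF factors and had the highest ratio of RT to Ctrl among the members, and those of WNT5B because it was the other member called. Of the members, 7 had an entry among the RefSeq promoter sequences (GRCh38.p14), with 11 start sites, and AXIN2, DKK3 and WNT7B did not. In the 250 bases before each start, the letters CTTTGA (the TCF/LEF motif, either strand) and the AP-1 motif (TGA and TCA around 1 base of any kind) were searched. CTTTGA was found before 1 of the 11 start sites, that of DKK1, where it occurred 2 times, with its first base 149 bases before the start on the reverse strand and 95 bases before it on the forward strand. Over all 35116 promoters, 11.2% held CTTTGA, 2.26% the longer CTTTGAT, which was before none of the 11 start sites, and 6.57% the AP-1 motif. A match of letters is a description and not a binding site. The DKK1 sequence, at chr10:52314031-52314280 on the forward strand, and the 2 WNT5B sequences, at chr12:1616806-1617055 and chr12:1628981-1629230 on the forward strand, are given 5′ to 3′ with CTTTGA or its reverse complement in capitals.
DKK1: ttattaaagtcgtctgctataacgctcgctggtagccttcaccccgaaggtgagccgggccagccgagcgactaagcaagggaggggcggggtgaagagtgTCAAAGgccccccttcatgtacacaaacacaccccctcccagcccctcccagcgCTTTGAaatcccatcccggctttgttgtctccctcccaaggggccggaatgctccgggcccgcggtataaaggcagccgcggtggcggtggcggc
WNT5B, first start: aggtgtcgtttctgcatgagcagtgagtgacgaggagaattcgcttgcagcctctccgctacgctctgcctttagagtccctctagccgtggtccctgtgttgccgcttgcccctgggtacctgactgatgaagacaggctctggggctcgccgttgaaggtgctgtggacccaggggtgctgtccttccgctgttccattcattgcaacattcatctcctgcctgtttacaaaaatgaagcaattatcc
WNT5B, second start: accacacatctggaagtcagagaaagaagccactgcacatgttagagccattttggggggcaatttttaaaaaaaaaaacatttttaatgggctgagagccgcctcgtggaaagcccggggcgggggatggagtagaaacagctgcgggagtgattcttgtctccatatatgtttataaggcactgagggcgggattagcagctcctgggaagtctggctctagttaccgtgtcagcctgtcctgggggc

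The DKK1 stretch has 62.8% G and C with 18 CpG dinucleotides, against 54.8% with 10 and 50.8% with 7 in the WNT5B stretches. Neither WNT5B stretch holds CTTTGA or the AP-1 motif. The AP-1 motif was found before 1 of the 11 start sites, the second of RNF43, with its first base 47 bases before the start.

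DKK3 (ENSG00000050165, chromosome 11, 11956207 to 12009769, reverse strand), which belongs to the DKK family by sequence but does not act on LRP5 and LRP6 as DKK1 does, differed from DKK1 in its pattern. Its counts in the same order were 3020, 1831 and 1229, or 66.6, 54.6 and 35.1 CPM, so that Ctrl was highest and RT + shHDAC6 lowest. The log2 ratio of RT to Ctrl was -0.29 (interval -0.37 to -0.20), that of RT + shHDAC6 to RT was -0.64 (interval -0.74 to -0.53), and against Ctrl RT + shHDAC6 had 52.7% of the level. USP47 overlaps 47.5% of the exon length of DKK3 on the other strand and had 7054, 4545 and 4372 counts. The strand setting of the counting is not stated, so the part of these reads in the DKK3 counts was not tested. The coding sequences of DKK1 and DKK3 were 40.0% identical, with a longest shared run of 10 bases between the transcripts.

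**Figure D2:**
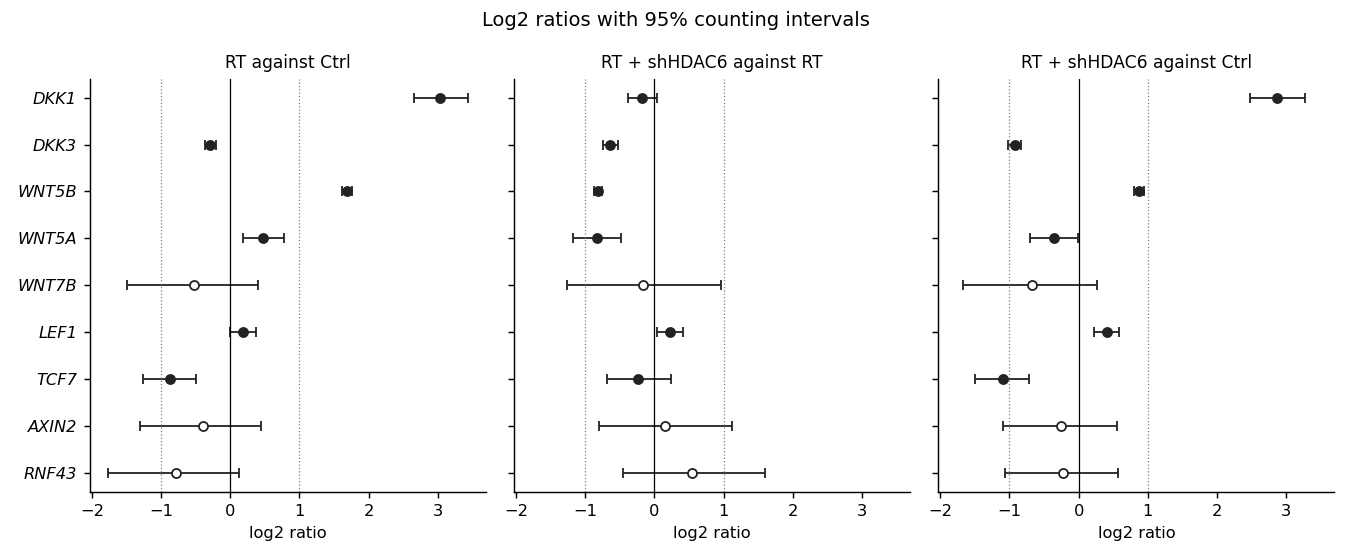
Log2 ratios (horizontal axis) of the 9 genes with at least 10 counts for RT against Ctrl, RT + shHDAC6 against RT and RT + shHDAC6 against Ctrl, with 95% counting intervals as bars and 2-fold marked by dotted lines. Open circles are genes under 100 counts in all libraries; DKK1 lies at 3.04, -0.18 and 2.87, and WNT5B at 1.69, -0.82 and 0.87.

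WNT5B (ENSG00000111186, chromosome 12, 1529891 to 1647212, forward strand) was the WNT gene with the most reads in all 3 libraries. It had 2572 counts (Ctrl), 6140 (RT) and 3635 (RT + shHDAC6), or 56.7, 183 and 104 CPM. RT was highest, Ctrl lowest and RT + shHDAC6 in between, and no 2 of the counting intervals overlapped. RT was 3.23-fold above Ctrl, a log2 ratio of 1.69 (interval 1.62 to 1.76), and 155 of the 20267 genes tested had a higher one. RT + shHDAC6 had 56.7% of the RT level, a log2 ratio of -0.82 (interval -0.88 to -0.76), which is short of 2-fold, and 1217 of 19013 genes tested had a lower one. Against Ctrl, 51.6% of the difference on the log2 scale was kept, with a log2 ratio of 0.87 (interval 0.80 to 0.95). The intervals of DKK1 and WNT5B for RT + shHDAC6 against RT did not overlap. RT is part of both comparisons, so that their values are not independent of each other.

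WNT5A (ENSG00000114251, chromosome 3, 55465715 to 55490539, reverse strand), the closest relative of WNT5B, was also highest in RT but, unlike WNT5B, lowest in RT + shHDAC6, at a far lower level. It had 185 counts (Ctrl), 191 (RT) and 112 (RT + shHDAC6), or 4.08, 5.69 and 3.20 CPM. The log2 ratio was 0.48 (interval 0.18 to 0.78) for RT against Ctrl, and RT + shHDAC6 against RT gave -0.83 (interval -1.18 to -0.49). Its log2 ratio of RT + shHDAC6 to Ctrl was -0.35 (interval -0.70 to -0.0047). The coding sequences of the pair were 75.8% identical and their canonical transcripts shared no exact run over 35 bases. How reads matching several genes were counted is not stated, and its part in the WNT5A counts was not tested.

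WNT7B (ENSG00000188064, chromosome 22, 45920366 to 45977162, reverse strand) had 31 counts (Ctrl), 16 (RT) and 15 (RT + shHDAC6), or 0.684, 0.477 and 0.428 CPM. Its intervals spanned 0 in each comparison, for instance -1.49 to 0.40 for RT against Ctrl, so a difference was not detectable at this depth. WNT7A (ENSG00000154764, chromosome 3, 13816258 to 13880071, reverse strand) had 5, 6 and 0 counts. A count of 0 allows up to 3 counts, or 0.0857 CPM in that library, and the counting interval of RT (0.0656 to 0.389 CPM) includes this floor, so that no fold is given. The coding sequences of WNT7A and WNT7B were 77.9% identical, with a longest shared run of 30 bases.

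Summed over the 19 WNT ligand genes and per kilobase of exon (RPKM), WNT5B made up 71.9% of the ligand level in Ctrl, against 90.9% in RT and 85.3% for RT + shHDAC6. In counts, its share was 61.8% of 4159 ligand counts (interval 60.3 to 63.3) in Ctrl, 86.4% of 7105 (interval 85.6 to 87.2) in RT and 78.1% of 4655 (interval 76.9 to 79.3) in RT + shHDAC6. The summed ligand level was 18.6 RPKM in Ctrl, against 47.5 in RT and 28.7 for RT + shHDAC6, and the other ligands together were no higher in RT than in Ctrl. WNT5A made up 3.07%, 1.68% and 1.56% of the summed level, WNT7B under 1% and WNT7A under 0.2% of it. The ligand most tied to canonical signalling, WNT3A, had 0 counts in all 3 libraries, as did WNT1 and WNT8A, which allows up to 0.0894 CPM in the library with the highest floor. Other ligands were present. WNT2B had 733 counts (Ctrl), 338 (RT) and 485 (RT + shHDAC6), and WNT3 had 272, 297 and 269. For RT against Ctrl their log2 ratios were -0.68 (interval -0.87 to -0.49) and 0.56 (interval 0.32 to 0.80).

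**Figure D3:**
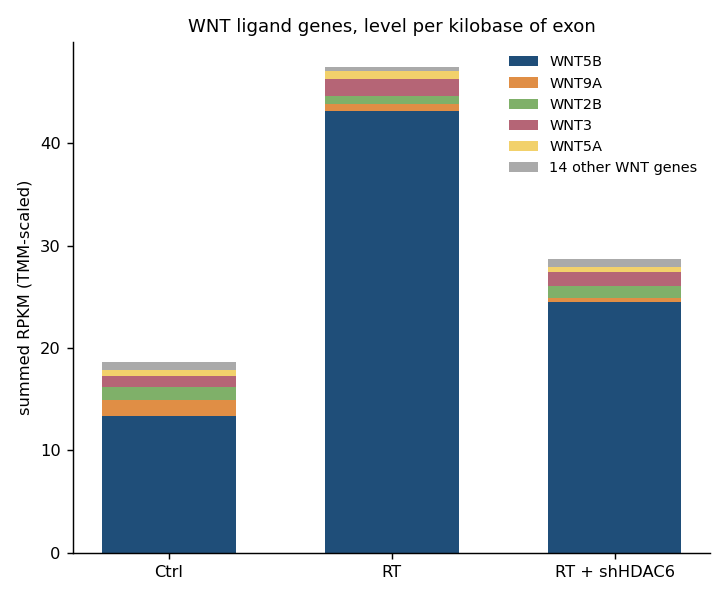
Summed level of the 19 WNT ligand genes in RPKM after TMM scaling (vertical axis, from 0) in the 3 libraries, with the 5 ligands that reached 100 counts in their own colours. The sums are 18.6 in Ctrl, against 47.5 in RT and 28.7 for RT + shHDAC6, and WNT5B is the largest segment of each bar.

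LEF1 (ENSG00000138795, chromosome 4, 108047545 to 108168956, reverse strand), a TCF/LEF factor, had 504 counts (Ctrl), 423 (RT) and 516 (RT + shHDAC6), or 11.1, 12.6 and 14.7 CPM. RT could not be told from Ctrl, at 0.18 on the log2 scale (interval -0.0075 to 0.37), which became -0.035 with library totals in place of TMM. RT + shHDAC6 lay slightly above RT, at 0.22 on the log2 scale (interval 0.036 to 0.41), and above Ctrl, at 0.41 (interval 0.23 to 0.59).

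TCF7 (ENSG00000081059, chromosome 5, 134114681 to 134151865, forward strand), which encodes TCF1, had another pattern than LEF1. It had 208 counts (Ctrl), 84 (RT) and 75 (RT + shHDAC6), or 4.59, 2.50 and 2.14 CPM, and Ctrl lay above the intervals of both irradiated libraries. The log2 ratio was -0.87 (interval -1.26 to -0.50) for RT against Ctrl, and RT + shHDAC6 against RT gave -0.23 (interval -0.69 to 0.24). With library totals in place of TMM the first of these was past 2-fold, at -1.09, as was that of RNF43, at -1.0. In RT + shHDAC6 against Ctrl, TCF7 was the 1 member called lower (log2 ratio -1.10, interval -1.5 to -0.71) and DKK1 the 1 called higher, where 10.5% and 4.91% of all 20374 genes tested were called. SKP1 overlaps 2.08% of the exon length of TCF7 on the other strand and had 2111, 1275 and 1268 counts. The part of such reads in the TCF7 counts was not tested. The coding sequences of TCF7 and LEF1 were 52.7% identical.

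AXIN2 (ENSG00000168646, chromosome 17, 65528563 to 65561648, reverse strand), the feedback gene most used as a readout of β-catenin, had 34 counts (Ctrl), 19 (RT) and 22 (RT + shHDAC6), or 0.750, 0.566 and 0.628 CPM. The intervals of the 3 libraries overlapped. For RT against Ctrl the log2 ratio was -0.40 (interval -1.30 to 0.45) and for RT + shHDAC6 against RT 0.15 (interval -0.80 to 1.12), so that a difference was not detectable at this depth. In RT against Ctrl the interval of the ratio ran from 0.407 to 1.36. A read-through gene overlaps 25.3% of its exon length on the same strand and had 0 counts in all 3 libraries.

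RNF43 (ENSG00000108375, chromosome 17, 58353676 to 58417595, reverse strand) had 35 counts (Ctrl), 15 (RT) and 23 (RT + shHDAC6), or 0.772, 0.447 and 0.657 CPM. Its intervals also overlapped, at -0.79 on the log2 scale (interval -1.77 to 0.12) for RT against Ctrl, and RT + shHDAC6 against RT gave 0.55 (interval -0.45 to 1.60). A read-through gene shares 68.4% of its exon length in GENCODE release 44 but is not among the genes counted. TSPOAP1-AS1 overlaps 5.45% of the exon length of RNF43 on the other strand and had 21, 5 and 22 counts. The part of such reads in the RNF43 counts was not tested.

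Ordered by level per kilobase of exon, WNT5B led in all 3 libraries, with 13.4 RPKM in Ctrl, against 43.2 in RT and 24.5 for RT + shHDAC6. In Ctrl it was followed by DKK3 (5.57 RPKM), LEF1 (2.07 RPKM), DKK1 (0.645 RPKM) and WNT5A (0.570 RPKM), of which the last 2 did not differ beyond counting error. In RT, DKK1 stood second at 5.32 RPKM, just above DKK3 at 4.57 RPKM. In RT + shHDAC6, DKK1 (4.71 RPKM) stayed above DKK3 (2.94 RPKM), and DKK3 and LEF1 (2.75 RPKM) did not differ beyond counting error. The order of DKK1 and DKK3 depends on the length used, all annotated exons together, 2221 bases for DKK1 and 11958 for DKK3. In CPM, DKK3 lay above DKK1 in RT (54.6 against 11.8) and in RT + shHDAC6 (35.1 against 10.5). Which transcripts the cells make was not tested. AXIN2, WNT7B and RNF43 lay between 0.0707 and 0.144 RPKM in every library and could not be ordered in any of them.

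**Figure D4:**
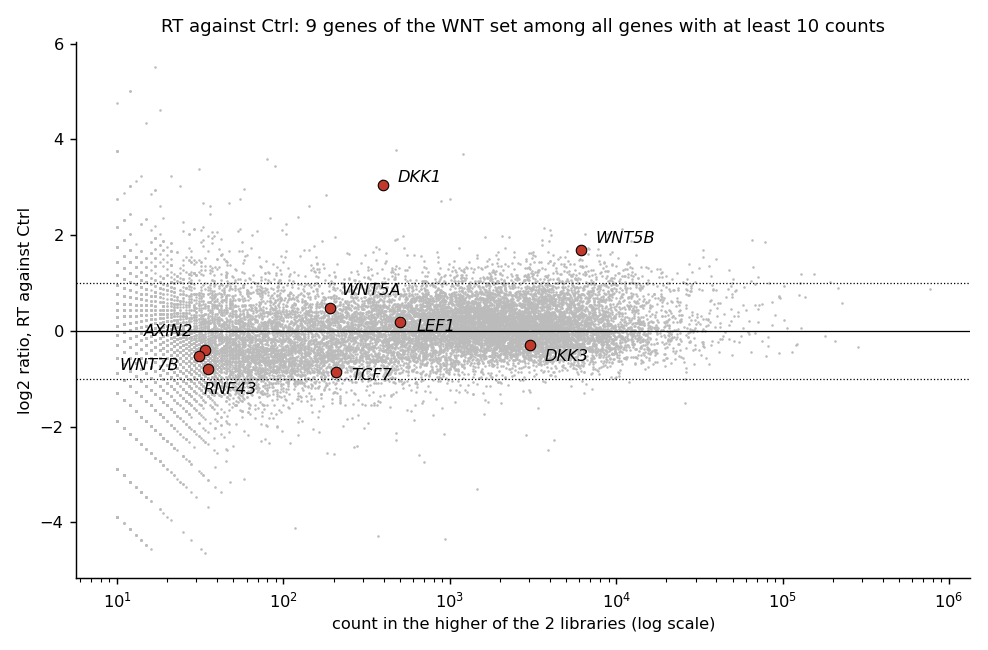
Log2 ratio of RT to Ctrl (vertical axis) against the count in the higher of the 2 libraries (horizontal axis, log scale) for the 20267 genes with at least 10 counts, in grey, with 9 of the 10 members in red and 2-fold marked by dotted lines. DKK1 at 3.04 and WNT5B at 1.69 lie above the grey cloud or at its upper edge, and AXIN2, RNF43 and WNT7B lie among genes of few counts, whose median is below 0.

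The low genes need to be read beside the other genes of their depth. For RT against Ctrl, the median log2 ratio was -0.37 over the 7597 genes with 10 to 99 counts in the higher library, -0.024 over the 5082 with 100 or more but under 1000 and 0.094 over the 7588 with at least 1000. AXIN2, WNT7B and RNF43 fall in the first of these classes, with log2 ratios of -0.40, -0.52 and -0.79, and their intervals include its median. For RT + shHDAC6 against RT the medians were 0.075, -0.0094 and -0.023.

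Markers of cell types that a pure T24 culture should lack were also counted. T24 markers were present (KRT7, KRT8, KRT18, KRT19, VIM and CD44, 3920 to 4910 CPM summed), with most of the sum from VIM and CD44. KRT7 had 3533 counts (Ctrl), 3854 (RT) and 597 (RT + shHDAC6), or 77.9, 115 and 17 CPM. KRT8, KRT18, KRT19 and VIM were higher for RT + shHDAC6 than for RT, and CD44 was slightly lower (1850 against 1930 CPM). Of 7 urothelial differentiation markers only GATA3 and PPARG had at least 10 counts in every library. GATA3 had 51.2, 42.4 and 20.2 CPM and PPARG 28.6, 19.4 and 10.1 CPM, with RT + shHDAC6 last. The cause of these differences was not tested. All 14 markers of fibroblasts, leukocytes and endothelium had counts in all 3 libraries. The 6 fibroblast markers summed to 315 CPM in Ctrl, against 244 in RT and 206 for RT + shHDAC6, the 3 endothelial markers to 23.1, 14.5 and 19.2 CPM, and the 5 leukocyte markers to 3.97, 3.28 and 3.0 CPM. No defining marker was at 0. Summed over all 14, the counts were 15523, 8777 and 7975, with log2 ratios of -0.39 (interval -0.43 to -0.35) for RT against Ctrl, and RT + shHDAC6 against RT gave -0.20 (interval -0.24 to -0.16). The markers did not move together between the irradiated libraries. DCN, LUM, PECAM1, CDH5 and VWF, a subset not set beforehand, had 2696, 1253 and 1701 counts in sum. Their log2 ratios were -0.67 (interval -0.77 to -0.57) for RT against Ctrl and 0.38 (interval 0.27 to 0.49) for RT + shHDAC6 against RT. COL3A1, the marker with the most counts, had 7426, 4701 and 2971, and PDGFRB and PTPRC were also lower in RT + shHDAC6 than in RT. AXIN2, RNF43 and WNT7B lay below 0 for RT against Ctrl. AXIN2 and RNF43 lay above 0 and WNT7B below 0 for RT + shHDAC6 against RT, with intervals that span 0 throughout. The part of RNA from other cell types in the levels of these genes, and of the other pathway genes, was not tested.

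To place the members within the pathway, 95 genes were grouped by role, and 75 of them had at least 10 counts in Ctrl or RT. Of these, 7 were at least 2-fold higher and 9 at least 2-fold lower in RT than in Ctrl, or 9.33% and 12.0%, beside 4.81% and 9.17% of all genes tested. Of the 9 lower genes, 8 had under 100 counts in both libraries, a class in which 20.8% of all genes were at least 2-fold lower. In RT + shHDAC6 against RT, 8 of 72 were higher and 1 lower, or 11.1% and 1.39%, beside 4.35% and 4.78% of all genes tested, and 10.2% and 9.36% of those with 10 to 99 counts. The median log2 ratios were -0.047 and -0.054, against -0.062 and -0.0032 for all genes tested. The lists were written with earlier results of these libraries known.

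Of the 19 ligands, 10 were tested for RT against Ctrl, and 1 was called higher, WNT5B, and 3 lower, where 4.81% and 9.17% of all genes were called. WNT9A was the 1 of these 3 with over 100 counts, with 271 (Ctrl), 81 (RT) and 60 (RT + shHDAC6) (log2 ratio -1.31 for RT against Ctrl, interval -1.68 to -0.94). The other two were WNT4 and WNT16, named after their values were seen, with 36 and 12 counts in Ctrl against 13 and 4 in RT. The interval of WNT16 spanned 0 (-3.24 to 0.57), and both belong to the class of 10 to 99 counts, where 20.8% of all genes were lower. In RT + shHDAC6 against RT, 8 ligands were tested and 1 was called, WNT10B, which was higher and was also named after its values were seen. It had 15 counts (Ctrl), 6 (RT) and 45 (RT + shHDAC6) and an interval of 1.61 to 4.36 on the log2 scale. Over all genes tested, 4.35% were called higher and 4.78% lower, and 10.2% and 9.36% in its class of 10 to 99 counts.

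WNT secretion depends on PORCN, the acyltransferase that lipidates the ligands, and on WLS, the carrier that takes them to the cell surface. WLS had 1311 counts (Ctrl), 1371 (RT) and 5080 (RT + shHDAC6). It was not called for RT against Ctrl (log2 ratio 0.50, interval 0.39 to 0.61) but rose in RT + shHDAC6 against RT, with a log2 ratio of 1.83 (interval 1.74 to 1.91). PORCN had log2 ratios of 0.81 (interval 0.66 to 0.95) for RT over Ctrl and, for RT + shHDAC6 over RT, -0.21 (interval -0.35 to -0.071).

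Of 16 receptors and co-receptors, 14 were tested in both comparisons, with a median log2 ratio of 0.69 (RT against Ctrl) and -0.25 (RT + shHDAC6 against RT). Over all genes tested the medians were -0.062 and -0.0032. ROR1, a receptor for WNT5A, had 275 counts (Ctrl), 611 (RT) and 330 (RT + shHDAC6), with log2 ratios of 1.59 (interval 1.38 to 1.80) for RT over Ctrl and, for RT + shHDAC6 over RT, -0.95 (interval -1.15 to -0.76). This order of the libraries, which WNT5B also had, was not particular to ROR1, and other receptors of the list had it too, LRP5 and FZD6 among them. LRP5, a co-receptor that DKK1 binds, had 6031, 9650 and 6783 counts, with log2 ratios of 1.11 and -0.57. FZD6 was the Frizzled gene with the highest level per kilobase, at 32.7 RPKM in Ctrl, against 63.6 in RT and 51.2 for RT + shHDAC6. FZD8 had 62, 54 and 144 counts and was called higher in RT + shHDAC6 against RT (log2 ratio 1.35, interval 0.89 to 1.83). ROR2, named after its values were seen, had 24, 7 and 17 counts and passed 2-fold in both comparisons, lower in the first (interval -2.80 to -0.084) and higher in the second, where its interval spanned 0 (-0.13 to 2.73) and a difference was not detectable.

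Among 13 secreted antagonists, 9 were tested, with a median log2 ratio of -0.56 for RT against Ctrl, against -0.062 for all genes tested. DKK1 was the 1 called higher, where 4.81% of all genes were called higher and 9.17% lower. The 1 called lower was WIF1, named after its values were seen, with 42, 13 and 25 counts (interval -2.28 to -0.33). It belongs to the class of 10 to 99 counts, where 20.8% of all genes were lower. SFRP2, with 436 counts (Ctrl), 173 (RT) and 254 (RT + shHDAC6), had log2 ratios of -0.90 (interval -1.16 to -0.64) for RT over Ctrl and, for RT + shHDAC6 over RT, 0.49 (interval 0.21 to 0.78). Of the 3 DKK receptors, CKAP4, an endoplasmic reticulum protein that also binds DKK1 at the cell surface, had 10057, 15491 and 9687 counts and was called higher for RT against Ctrl (log2 ratio 1.06, interval 1.02 to 1.09). KREMEN1, which removes LRP6 together with DKK1, had log2 ratios of -0.36 (interval -0.49 to -0.23) for RT over Ctrl and, for RT + shHDAC6 over RT, -0.24 (interval -0.39 to -0.088).

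**Figure D5:**
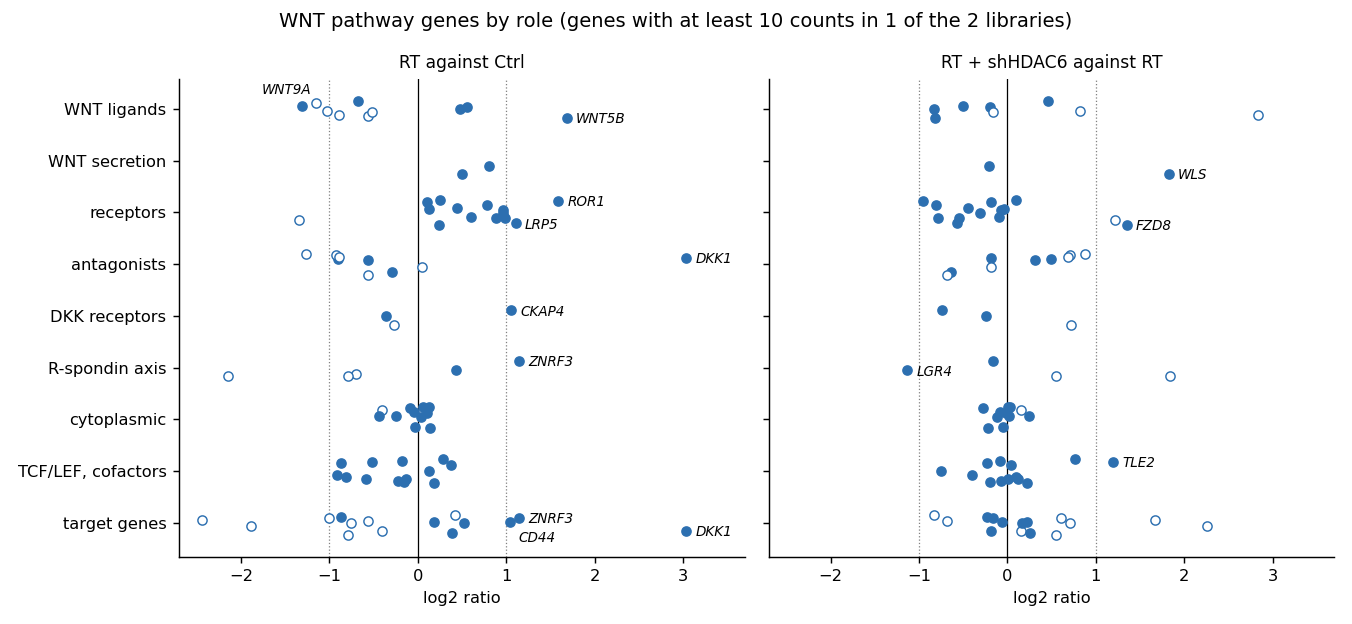
Log2 ratios (horizontal axis) of WNT pathway genes with at least 10 counts in 1 of the 2 libraries, by role, for RT against Ctrl and RT + shHDAC6 against RT, with 2-fold marked by dotted lines. Filled circles are genes that reach 100 counts in a library and open circles those with fewer; names are given for filled genes past 2-fold, and the cytoplasmic genes lie between -0.44 and 0.25 in both comparisons.

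R-spondins strengthen WNT signals by binding LGR receptors and thereby holding back RNF43 and its relative ZNRF3. ZNRF3 had far more reads than RNF43, with 1077 counts (Ctrl), 1773 (RT) and 1655 (RT + shHDAC6), and was called higher for RT against Ctrl (log2 ratio 1.15, interval 1.04 to 1.26). LGR4, the only R-spondin receptor of the list with over 100 counts, had 2948, 2944 and 1401 counts and was called lower in RT + shHDAC6 against RT (log2 ratio -1.13, interval -1.23 to -1.04). None of the 4 R-spondins passed 11 counts in a library. LGR6, named after its values were seen, had 24, 4 and 15 counts and passed 2-fold in both comparisons (intervals -4.14 to -0.61 and 0.19 to 3.89).

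None of the 11 genes of the cytoplasmic relay, AXIN2 among them, was called in any comparison. Over all genes tested, 4.81% were called higher and 9.17% lower for RT against Ctrl. For RT + shHDAC6 the shares were 4.35% and 4.78% against RT, and 4.91% and 10.5% against Ctrl. Among genes with at least 1000 counts, as all 11 but AXIN2 had, 5.1% were higher and 0.633% lower for RT against Ctrl. In that class the shares were 0.329% and 1.16% for RT + shHDAC6 against RT. Nothing is read from 0 calls among 11 genes. Their log2 ratios lay between -0.44 and 0.25 in RT against Ctrl and RT + shHDAC6 against RT. CTNNB1, which encodes β-catenin, had 20654, 14786 and 14529 counts and log2 ratios of -0.047 and -0.087. DVL1, a cytoplasmic adaptor of Frizzled receptors, had log2 ratios of 0.11 and -0.016. Of the 13 TCF/LEF factors and cofactors, 0 were called for RT against Ctrl, beside the same shares of 4.81% and 9.17% over all genes. In RT + shHDAC6 against RT, TLE2, a corepressor, was the 1 called higher, with 178, 92 and 221 counts (log2 ratio 1.20, interval 0.85 to 1.57). BCL9L and PYGO2, co-activators that link β-catenin to transcription, lay between -0.22 and 0.0073.

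The 17 target genes of β-catenin did not differ in one direction. Of 15 tested for RT against Ctrl, 3 were called higher and 3 lower, with a median log2 ratio of -0.40, where 4.81% and 9.17% of all genes were called. Those called higher were DKK1, ZNRF3 and CD44, a hyaluronan receptor with 42674 counts (Ctrl), 64681 (RT) and 64753 (RT + shHDAC6) (log2 ratio 1.04, interval 1.02 to 1.05). Those called lower were NKD1, NKD2 and APCDD1, named after their values were seen, with 10, 22 and 46 counts in Ctrl against 2, 3 and 17 in RT. The interval of NKD1 spanned 0 (-5.12 to 0.34). All 3 are in the class of 10 to 99 counts, in which the median over all genes was -0.37 and 20.8% were lower. CCND1, which encodes cyclin D1, had log2 ratios of 0.39 (interval 0.36 to 0.41) for RT over Ctrl and, for RT + shHDAC6 over RT, 0.26 (interval 0.23 to 0.28). In RT + shHDAC6 against RT, 2 targets were past 2-fold higher, NKD1 and NKD2, each with 10 counts in RT + shHDAC6, and 0 lower, with a median of 0.16, where 4.35% and 4.78% of all genes were called. The interval of NKD2 spanned 0 (-0.28 to 4.17) and that of NKD1 (0.029 to 5.49) lay just above it. LRP5, CKAP4, ZNRF3 and CD44 were under 2-fold for RT against Ctrl with library totals in place of TMM, at log2 ratios of 0.82 to 0.94, while DKK1, WNT5B, ROR1 and WNT9A passed it under all 6 alternatives run for ratios. With library totals, 15.5% and not 34.4% of all calls for RT against Ctrl were higher.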

How the data were processed

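The authors deposited raw read counts per gene, made by trimming with cutadapt, alignment with STAR (2.6.1a per the labels; the paper's methods name another version) to GRCh38 and counting by featureCounts on GENCODE release 28, without normalisation. The labels name a TruSeq Stranded mRNA kit and the paper a SureSelect strand-specific kit. Strand setting and handling of multiply matching reads are not given in the sources used here. All 3 columns of counts were used.

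TMM factors were computed over the 3 libraries with edgeR 4.0.16 and median-of-ratios factors with DESeq2 1.42.0 (R 4.3.3); neither tool's test can be run with 1 library per condition. NOISeq, named in the paper's methods, draws simulated noise for such data and was not used. A count of 0 was set to 0.5. Intervals (95%) were computed with scipy 1.17.1. They were checked on simulated Poisson counts without spread between libraries, so the check could not show how they hold under such spread. Since reads without molecular identifiers are not independent, these intervals, and floors of 3 counts, cover counting error only. Symbols, positions and exon lengths came from GENCODE release 44, which matched 57754 of 58381 identifiers and is not the release used for counting. Motifs and coding sequences were compared with Biopython 1.88 and protein sequences were not used here.

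The genes named by rule are the 10 members, HDAC6 and the 3 genes nearest to DKK1 by their pair of log2 ratios. So are the pathway genes with at least 100 counts and a 2-fold difference for RT against Ctrl or RT + shHDAC6 against RT. The rule also takes the 2 genes of each list with the highest level per length in Ctrl. Outside it, WNT1, WNT2B, WNT3, WNT3A, WNT4, WNT8A, WNT10B, WNT16, ROR2, WIF1, LGR6, NKD1, NKD2 and APCDD1 were named after their values were seen. Cell type markers and genes that overlap a member are named as such. Members and lists were chosen with earlier results of these data known.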

Additional observations from a re-analysis of the deposited data

How the results depend on the processing

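No paired analysis was possible because each condition has 1 library, and for the same reason no library could be left out. Of 180 member log2 ratios under the 6 alternatives, 174 stayed within the counting interval and 6 moved beyond it; a change of sign was seen for LEF1 alone, for RT against Ctrl. Compared with TMM, library totals moved every log2 ratio by -0.22 (RT against Ctrl), 0.084 (RT + shHDAC6 against RT) and -0.13 (RT + shHDAC6 against Ctrl). TMM from the 2 libraries compared, added after the data were seen, moved the first by 0.025.

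With library totals, 523 genes were higher and 2845 lower for RT against Ctrl (975 and 1858 with TMM), 2 members were lower for RT against Ctrl (TCF7 and RNF43), and 2 were lower for RT + shHDAC6 against Ctrl (TCF7 and DKK3). At 1.5-fold, 2938 genes were higher and 4156 lower (RT against Ctrl), then 1917 and 1888 for RT + shHDAC6 against RT, and 2830 and 4182 for RT + shHDAC6 against Ctrl. At that fold, 2 members were lower (RT against Ctrl), 3 lower (RT + shHDAC6 against RT), and 2 higher and 3 lower for RT + shHDAC6 against Ctrl. With at least 1 count, the genes numbered 4036 and 5149, 3032 and 5179, and 4157 and 5309 in the same order, and WNT7A added 1 lower member for RT + shHDAC6 against RT and made it 2 against Ctrl. With at least 100 counts they numbered 537 and 278, 120 and 259, and 452 and 562. Depth limits AXIN2, RNF43, WNT7A and WNT7B, which had under 100 counts in all libraries.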
